A study of Mus musculus with 36 samples.

Results

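The caspase genes Casp1, Casp2, Casp4, Casp6, Casp8, Casp9 and Casp12 were followed across mouse embryonic fibroblasts, a common culture model for stress signalling, in 3 lines and 4 conditions. They are 7 of the 54735 gene symbols in the table, taken by symbol. They were chosen by their thapsigargin values, because Casp4 was higher with that agent in the lines not deleted for the kinase PERK, so the thapsigargin values are given as a description, with no test. The lines were labelled as having a GCN2 deletion, a PERK deletion, or as wild type (WT). Each line was starved in SILAC RPMI 1640 medium without lysine and arginine (AAS), given thapsigargin at 200 nM, given the solvent DMSO, or left untreated; both stresses lasted 6 h. Each of the 12 groups has 3 libraries labelled technical replicates, 36 in all, and each genotype has 1 line. The p-values thus measure the spread between such libraries within groups, pooled over the 12 groups, and not that between lines. Whether the libraries came from separate cultures is not given. A deletion cannot be told apart from the line that carries it. All cells were grown in RPMI 1640 with serum; the labels give no strain and no SILAC medium with the amino acids added back as a control for the starvation.

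Caspases are cysteine proteases made as inactive precursors. Initiator caspases are switched on in large assemblies (Casp8 under death receptors, Casp9 on the Apaf1 apoptosome, Casp2 on the PIDDosome) and cleave executioners such as Casp6. The inflammatory caspases Casp1, Casp4 and Casp12 lie side by side in the mouse genome: Casp1 acts in inflammasomes, Casp4 (caspase-11 in mice) senses lipopolysaccharide in the cytosol and cleaves the pore protein gasdermin D, and Casp12 has been tied in rodents to stress of the endoplasmic reticulum (ER). PERK (gene Eif2ak3) and GCN2 (gene Eif2ak4) are kinases of eIF2alpha that respond to ER stress and to missing amino acids, and thapsigargin causes ER stress by blocking the calcium pump of the ER. Values are TPM, a length-corrected relative abundance from which the read depth cannot be read. Differences are on the log2(TPM + 1) scale, which understates changes of low genes, with their standard error (SE).

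Promoter windows from RefSeq (GRCm38.p6, 250 bases before to 50 after the annotated start, plus strand) were found for 7 of 7 members. Those of Casp4 (chr9:5308599-5308898), Casp12 (chr9:5345226-5345525) and Casp6 (chr3:129901165-129901464) are shown, since the results turn on these genes. Capitals mark motif matches.
Casp4: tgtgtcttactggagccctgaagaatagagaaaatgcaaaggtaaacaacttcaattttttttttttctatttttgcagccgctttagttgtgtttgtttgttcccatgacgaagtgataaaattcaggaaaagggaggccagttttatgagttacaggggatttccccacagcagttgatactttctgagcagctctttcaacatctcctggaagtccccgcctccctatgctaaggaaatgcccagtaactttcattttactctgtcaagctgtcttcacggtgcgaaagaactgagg
Casp12: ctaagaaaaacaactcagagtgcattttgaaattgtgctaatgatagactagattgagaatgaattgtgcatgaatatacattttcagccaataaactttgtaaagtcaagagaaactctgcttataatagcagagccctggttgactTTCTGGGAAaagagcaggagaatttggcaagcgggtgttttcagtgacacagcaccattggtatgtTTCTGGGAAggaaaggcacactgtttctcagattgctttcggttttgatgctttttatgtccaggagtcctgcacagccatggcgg
Casp6: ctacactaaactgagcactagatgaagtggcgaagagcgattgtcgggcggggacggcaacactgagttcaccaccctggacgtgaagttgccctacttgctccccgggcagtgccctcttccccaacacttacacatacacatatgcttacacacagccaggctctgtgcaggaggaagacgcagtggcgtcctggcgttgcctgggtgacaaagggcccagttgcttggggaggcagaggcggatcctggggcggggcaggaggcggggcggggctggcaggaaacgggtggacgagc
The letters searched on both strands were the C/EBP-ATF composite site TGATGNAA, the ER stress element (CCAAT, 9 bases, CCACG), the UPR element TGACGTGG, the cAMP response element TGACGTCA, the interferon-gamma element TTCNNNGAA and the interferon response core GAAANNGAA. The matches in the 7 genes' windows were 2 copies of the interferon-gamma element in Casp12, TTCTGGGAA at -102 to -94 and at -36 to -28 from the start. That element is held by 8.3% of all 32851 windows, the interferon response core by 8.56%, the composite site by 3.97%, the cAMP element by 1.79%, the UPR element by 0.676% and the ER stress element by 0.119%. The share of G and C in the windows is 41.0% for Casp12, 42.0% for Casp4 and also for Casp8, 48.0% for Casp1, 62.0% for Casp6, 63.7% for Casp2 and 66.0% for Casp9 (all windows: median 52.7%). Casp4 has a further annotated start 11 bases downstream, whose window had no match either.

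In untreated cells each targeted kinase was lower in the line named for its deletion than in WT. Eif2ak4 had 5.25 ± 0.619 TPM in the untreated GCN2-deleted line, 22.7 ± 3.29 TPM in the PERK-deleted line and 24.6 ± 3.81 TPM in WT (SD, n = 3 each). Eif2ak3 had 10.1 ± 1.18 TPM in the GCN2-deleted line, 4.22 ± 0.353 TPM in the PERK-deleted line and 6.99 ± 0.878 TPM in WT, and the labels do not say which exons were removed. The difference from WT was -2.03 for Eif2ak4 in the GCN2-deleted line (adjusted p = 3.02e-13, limma) and -0.61 for Eif2ak3 in the PERK-deleted line (adjusted p = 6.64e-06). Under starvation Eif2ak3 had 4.24, 3.41 and 3.66 TPM in the PERK-deleted line, against 4.20, 3.82 and 3.93 TPM in WT, which overlapped, so its level checks the PERK label in untreated cells but not in starved ones. Correlations between libraries of a group were 0.962 to 0.988 (Pearson). In the PERK-deleted line Vim averaged 2176 TPM, against 1618 TPM in WT, while the 7 other fibroblast markers had lower means than in WT by differing amounts. Lowest against WT were Col1a1 at 13.7 TPM, against 770.5 TPM in WT, Col3a1 at 1.01 TPM, against 221 TPM in WT, and Pdgfra at 0.398 TPM, against 4.15 TPM in WT. Thy1 averaged 1.39 TPM, against 3.89 TPM in WT. Col1a2 averaged 124 TPM, against 334 TPM in WT, S100a4 153 TPM, against 655 TPM in WT, and Pdgfrb 14.6 TPM, against 26.1 TPM in WT. The summed level of the 8 fibroblast markers was 4238 to 5589 TPM in libraries of the GCN2-deleted line, 2330 to 2698 TPM in the PERK-deleted line and 3062 to 4312 TPM in WT. The 8 macrophage markers summed to at most 13.6 TPM in any library. Tyrobp was at 0 in all of them, while Cd68 averaged 4.77 TPM in the GCN2-deleted line, 4.48 TPM in the PERK-deleted line and 5.20 TPM in WT. Fcer1g averaged 0.537, 1.67 and 0.931 TPM in the same order. The epithelial markers summed to at most 2.18 TPM and the endothelial ones to at most 7.04 TPM. Whether the shift in fibroblast markers bears on the line differences below was not tested. In bulk RNA, fewer cells of a type and less RNA per cell cannot be told apart.

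Of the 6 members tested, with starvation Casp8 rose and Casp6, Casp9 and Casp12 fell in the GCN2-deleted line, 0 passed in the PERK-deleted line, and Casp4 rose and Casp6 and Casp12 fell in WT (limma). In the PERK-deleted line 1, Casp8, had an unadjusted p under 0.05. At an adjusted p of 0.05, 23.9% of the 16083 genes tested passed in the GCN2-deleted line (11.7% higher, 12.2% lower), 12.1% in the PERK-deleted line (5.75% higher, 6.39% lower) and 29.9% in WT (12.5% higher, 17.4% lower). Starved and untreated libraries did not overlap for 39.9%, 23.0% and 36.9% of genes in the same order of lines, and thapsigargin and DMSO libraries for 44.3%, 28.1% and 39.7%. The response to starvation differed from that of WT in 7.85% of genes in the GCN2-deleted line and 10.9% in the PERK-deleted line. A pass in 1 line and not in another is not such a test. Casp8 and Casp9 did not pass it in either deleted line. Casp4 and Casp12 passed the level filter, 1 TPM in 3 or more libraries, only through the groups where they are high. Where every library of a line lay under 1 TPM in the conditions compared, as for Casp4 in both deleted lines, starved or untreated, and for Casp12 in the PERK-deleted line, their values are given as a description, with no test, and the count of 0 for the PERK-deleted line says nothing of them.

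Casp4 was most abundant in WT. Untreated libraries had 0.588, 0.453 and 0.647 TPM in the GCN2-deleted line, 0.0617, 0.0474 and 0.222 TPM in the PERK-deleted line, and 7.59, 5.55 and 5.06 TPM in WT. The 3 lines did not overlap. The mean was 0.0928 of that of WT in the GCN2-deleted line and 0.0182 of it in the PERK-deleted line. All 6 untreated libraries of the deleted lines lay under the filter level. Line differences were common: 44.4% of genes tested passed between the GCN2-deleted line and WT, 49.8% between the PERK-deleted line and WT and 47.2% between the deleted lines, and libraries did not overlap for 43.8%, 45.2% and 49.8% of genes. Casp4 reached the filter level of 1 TPM in 15 of 36 libraries, all those of WT and the thapsigargin-treated ones of the GCN2-deleted line.

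With thapsigargin, Casp4 had 26.4, 25.7 and 29.4 TPM in WT, against 5.60, 5.13 and 6.72 TPM with DMSO. In the GCN2-deleted line it had 2.48, 1.38 and 1.94 TPM, against 0.564, 0.573 and 0.563 TPM with DMSO. In the PERK-deleted line it had 0.115, 0.0565 and 0.129 TPM, against 0.111, 0.0984 and 0.126 TPM with DMSO. Treated libraries stood apart from DMSO libraries in WT and the GCN2-deleted line, and overlapped them in the PERK-deleted line. The ratio of means was 4.67 in WT, 3.41 in the GCN2-deleted line and 0.898 in the PERK-deleted line. On the log2(TPM + 1) scale the change was 2.05 in WT, 0.89 in the GCN2-deleted line and -0.02 in the PERK-deleted line (SE 0.127 each). With a pseudocount of 0.1 in place of 1 the GCN2-deleted value was 1.57 and the WT value 2.21. These are the values that chose the set. The PERK-deleted line had a mean of 0.112 TPM already under DMSO, and whether that low level bears on its lack of a rise was not tested.

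Starvation, which the choice did not use, raised Casp4 in WT. It had 10.0, 10.9 and 9.21 TPM in starved WT, and the untreated WT values given above all lay lower. The change was 0.66 (SE 0.127, adjusted p = 0.000192, limma), or 1.65-fold. Starved libraries had 0.457, 0.924 and 0.715 TPM in the GCN2-deleted line and 0.0523, 0.0977 and 0.101 TPM in the PERK-deleted line, and both groups overlapped their untreated libraries. The ratio of the starved to the untreated mean was 1.24 in the GCN2-deleted line and 0.760 in the PERK-deleted line. At levels under 1 TPM the log2(TPM + 1) scale can show little of a fold change, so the responses of the deleted lines to starvation are not compared with that of WT for this gene. Over the 12 groups the order of the means was the thapsigargin, starved, untreated and DMSO groups of WT, then the thapsigargin, starved, DMSO and untreated groups of the GCN2-deleted line, then the 4 groups of the PERK-deleted line. Neighbours in it overlapped except at thapsigargin in both lines that responded, between starved and untreated WT, and at each step from line to line.

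**Figure D1:**
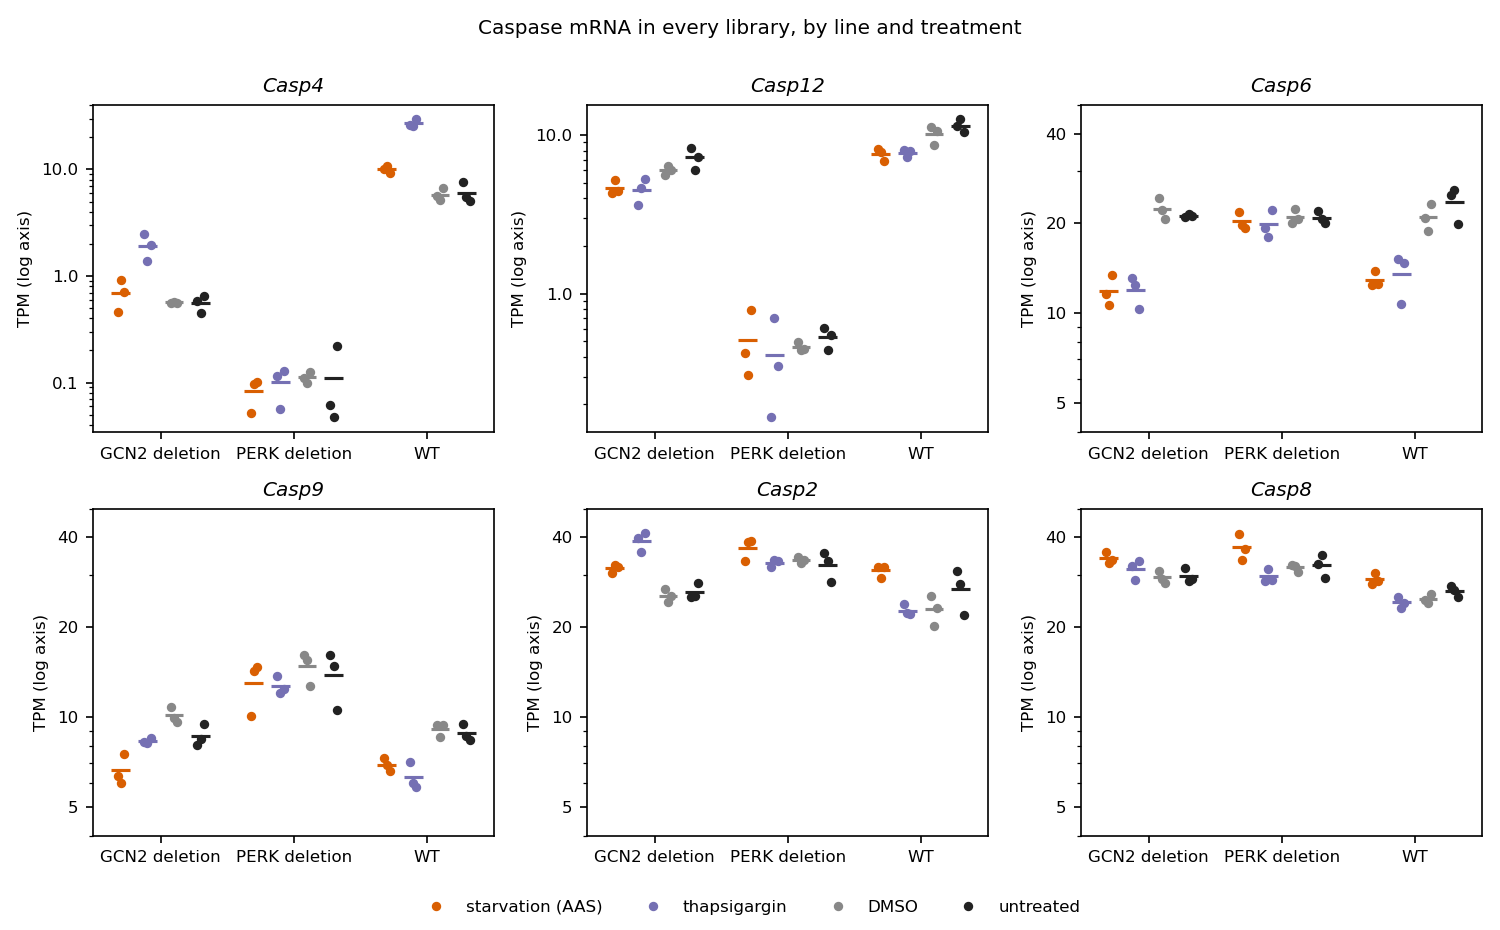
TPM (log axis) of 6 caspase genes in each of the 36 libraries (points) with group means (bars), by line (GCN2 deletion, PERK deletion, WT) and condition (starved, thapsigargin, DMSO, untreated from left to right within a line). Casp4 is at or above 5.06 TPM in all WT libraries and at or below 0.222 TPM in all libraries of the PERK-deleted line, and Casp6 has separate lower groups under both stresses in the GCN2-deleted line and WT.

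Casp12, the neighbour of Casp4, was likewise scarce in the PERK-deleted line, but starvation lowered it where Casp4 rose. Untreated libraries had 8.34, 6.06 and 7.32 TPM in the GCN2-deleted line, 0.607, 0.439 and 0.547 TPM in the PERK-deleted line, and 11.5, 12.6 and 10.4 TPM in WT. No library of a line reached the range of another. The difference from WT was -0.61 (SE 0.134, adjusted p = 0.000491, limma) in the GCN2-deleted line. The mean of the PERK-deleted line was 0.0462 of that of WT. Casp12 reached 1 TPM in all 24 libraries of the other two lines and in none of the PERK-deleted line.

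Starvation lowered Casp12 in both lines that expressed it. Starved libraries had 4.32, 5.18 and 4.46 TPM in the GCN2-deleted line and 8.15, 7.86 and 6.85 TPM in WT, all under their untreated counterparts. The change was -0.54 in each (SE 0.134; adjusted p = 0.00393 in the GCN2-deleted line and 0.00285 in WT, limma). With a pseudocount of 0.1 neither passed (adjusted p = 0.0916 in WT, limma), and against DMSO in place of untreated cells the change in the GCN2-deleted line did not either (adjusted p = 0.119). In the PERK-deleted line the starved values were 0.424, 0.307 and 0.790 TPM and overlapped the untreated ones, at a level where the scale can show little of a change.

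With thapsigargin Casp12 had 3.61, 4.61 and 5.29 TPM in the GCN2-deleted line, against 5.58, 6.37 and 6.04 TPM with DMSO. In WT it had 8.04, 7.32 and 7.90 TPM, against 11.3, 8.68 and 10.6 TPM with DMSO. Treated and DMSO libraries did not overlap in either line, and the change was -0.36 in the GCN2-deleted line and -0.35 in WT (SE 0.134 each). In the PERK-deleted line the values were 0.166, 0.706 and 0.350 TPM, against 0.498, 0.440 and 0.446 TPM with DMSO, which overlapped (-0.07, SE 0.134). In the same thapsigargin-treated WT libraries Casp4 was thus higher and Casp12 lower than with DMSO. Over the 12 group means on the log2(TPM + 1) scale their Pearson correlation was 0.724, with line and treatment shared between the points.

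Casp1 was not detected in 34 of 36 libraries. Its highest values were 0.0569 TPM in replicate 1 of the starved PERK-deleted line and 0.0267 TPM in replicate 1 of starved WT. It failed the level filter and has no test.

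The cluster lies on chromosome 9 (GRCm38): Casp1 at 5298517 to 5307281, Casp4 at 5308849 to 5336791 and Casp12 at 5345442 to 5373034. Of the 5 protein-coding genes on each side, looked at after the caspase values were known, 8 of 10 were tested and none was lower in either untreated deleted line than in WT. All of those tested passed as higher than in WT, except Dync2h1 in the GCN2-deleted line (adjusted p = 0.130, limma) and Mmp13 in the PERK-deleted line (adjusted p = 0.676). Nearest on the left among those tested, Msantd4 had 27.3 TPM in the GCN2-deleted line, 29.7 TPM in the PERK-deleted line and 22.7 TPM in WT. Nearest on the right, Pdgfd had 5.33 TPM, 3.45 TPM and 2.20 TPM in the same order. Pdgfd, a growth factor of the PDGF family, was higher than in WT by 0.99 in the GCN2-deleted line (SE 0.11, adjusted p = 1.59e-08, limma) and by 0.48 in the PERK-deleted line (SE 0.11, adjusted p = 0.000525). The low levels of Casp4 and Casp12 in the PERK-deleted line were not seen in these tested genes. The nearest of them lie well away from the cluster, as Msantd4 ends at 4386890 and Pdgfd starts at 6168363. In untreated WT Gucy1a2, Kbtbd3 and Mmp13 had 0.244, 0.691 and 0.0470 TPM, too low to show a loss.

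**Figure D2:**
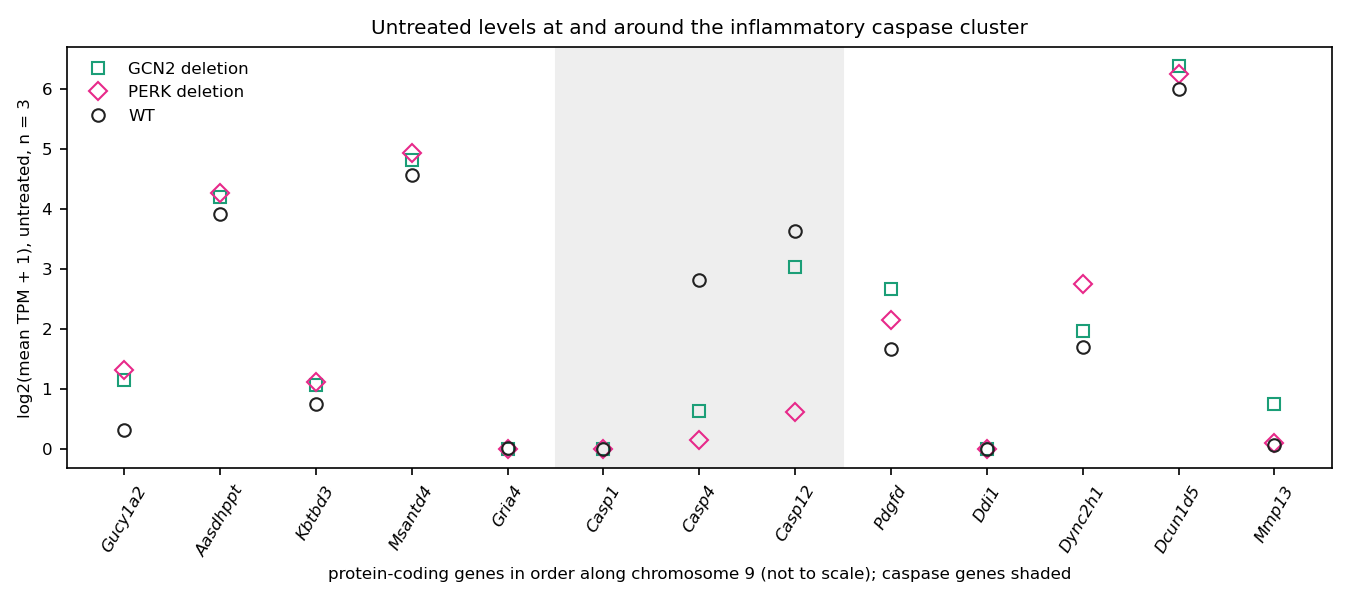
Level as log2(mean TPM + 1) in untreated cells (n = 3 libraries per line) of the 3 inflammatory caspases (shaded) and the 5 protein-coding genes on each side, in chromosome order, with the GCN2-deleted line as squares, the PERK-deleted line as diamonds and WT as circles. Casp4 and Casp12 are the tested genes in which WT lies above both deleted lines.

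The genes with group means most like those of Casp4 (Pearson over 12 groups, 10395 genes searched, each reaching a group mean of 5 TPM) were Eif3d (0.974), Mxi1 (0.974), Gfpt2 (0.971), Ptges3 (0.971) and Snhg8 (0.968). Their ranges were narrower: Eif3d, a subunit of the translation initiation factor eIF3, had 598 TPM in thapsigargin-treated WT, against 468 TPM in DMSO-treated WT, and 293 TPM in the DMSO-treated PERK-deleted line. Those most like Casp12 were Hoxc11 (0.995), Pdlim4 (0.992), Ucp2 (0.991), Col3a1 (0.991) and Klra4 (0.991). Hoxc11, a homeobox gene of positional identity, had 17.8 TPM in the untreated GCN2-deleted line, 0.037 TPM in the PERK-deleted line and 47.5 TPM in WT. Col3a1, a fibroblast collagen, had 109 TPM, 0.871 TPM and 257 TPM in the same order. The points share lines, so a gene that differs between lines scores high whatever its response to treatment.

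Casp6, an executioner that cleaves nuclear lamins, fell with starvation in the GCN2-deleted line and WT, and its response differed in the PERK-deleted line. Untreated libraries had 20.9, 21.5 and 21.2 TPM in the GCN2-deleted line, 21.9, 20.6 and 20.1 TPM in the PERK-deleted line, and 24.8, 25.8 and 19.9 TPM in WT. Both deleted lines overlapped WT, and the differences from WT were -0.13 in the GCN2-deleted line (95% interval -0.36 to 0.10, adjusted p = 0.352, limma) and -0.16 in the PERK-deleted line (-0.39 to 0.07, adjusted p = 0.263). The difference of the PERK-deleted line passed under 3 of 12 alternatives (adjusted p 0.0286 to 0.986, limma). That of the GCN2-deleted line passed with array weights only (adjusted p = 0.0326). Starved libraries had 11.6, 10.7 and 13.4 TPM in the GCN2-deleted line, 21.9, 19.8 and 19.3 TPM in the PERK-deleted line, and 12.4, 13.8 and 12.6 TPM in WT. Starved and untreated libraries stood apart in the GCN2-deleted line and WT and overlapped in the PERK-deleted line. The change was -0.79 in the GCN2-deleted line (SE 0.112, adjusted p = 5.52e-06), -0.04 in the PERK-deleted line (SE 0.112, adjusted p = 0.903) and -0.81 in WT (SE 0.112, adjusted p = 2.04e-06). The mean fell to 0.562 of the untreated level in the GCN2-deleted line and to 0.551 in WT. The response of the PERK-deleted line differed from that of WT by 0.77 (SE 0.158, adjusted p = 0.00118), and that of the GCN2-deleted line by 0.02 (SE 0.158, adjusted p = 0.972).

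The Casp6 values with thapsigargin overlapped those under starvation. They were 13.1, 12.4 and 10.4 TPM in the GCN2-deleted line, against 24.2, 22.2 and 20.6 TPM with DMSO. In WT they were 15.2, 10.7 and 14.7 TPM, against 20.8, 18.9 and 23.2 TPM with DMSO. In the PERK-deleted line they were 19.3, 18.1 and 22.1 TPM, against 20.1, 22.3 and 20.7 TPM with DMSO. Groups stood apart in the first pair of lines and overlapped in the PERK-deleted line, with changes of -0.85, -0.61 and -0.08 (SE 0.112 each) in that order. In the order of group means, the 8 groups from untreated WT (23.5 TPM) to the thapsigargin-treated PERK-deleted line (19.8 TPM) overlapped one with the next, and the 4 stressed groups of WT and the GCN2-deleted line lay below them at 11.9 to 13.6 TPM. Casp6 overlaps a pair of long noncoding genes on chromosome 3 that have no values in the table.

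**Figure D3:**
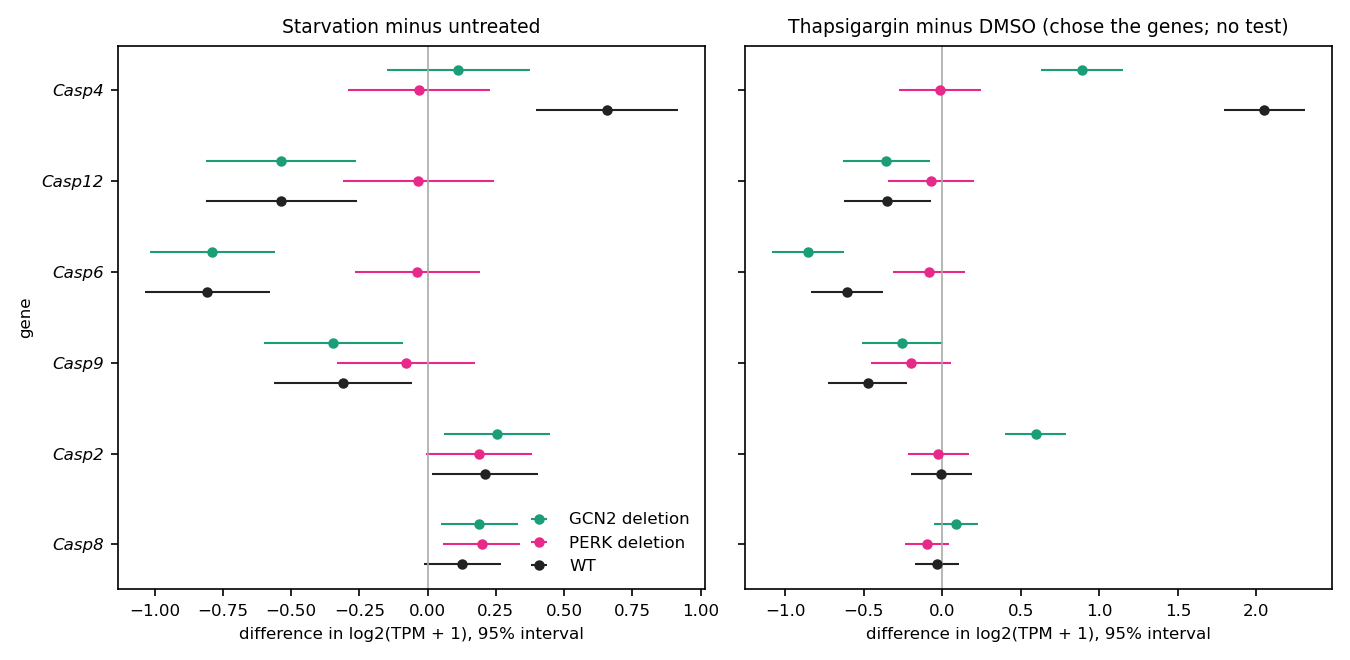
Difference in log2(TPM + 1) with its 95% interval for 6 caspase genes in the GCN2-deleted line (green), PERK-deleted line (pink) and WT (black), for starved minus untreated cells on the left and thapsigargin minus DMSO on the right (n = 3 libraries per group). Casp6 lies at -0.79 and -0.81 under starvation in the GCN2-deleted line and WT and at -0.04 in the PERK-deleted line; the right panel shows the values that chose the genes.

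Casp9, the initiator of the apoptosome, was more abundant in the PERK-deleted line than in the other lines. Untreated libraries had 8.07, 8.46 and 9.50 TPM in the GCN2-deleted line, 16.1, 14.9 and 10.5 TPM in the PERK-deleted line, and 9.48, 8.62 and 8.39 TPM in WT. The PERK-deleted line lay above the other two, and above WT by 0.58 (SE 0.124, adjusted p = 0.000304, limma) and above the GCN2-deleted line by 0.60 (SE 0.124, adjusted p = 0.000216), where the median of all genes lay at 0.08 and 0.13. Starved libraries had 6.34, 6.03 and 7.51 TPM in the GCN2-deleted line, 10.1, 14.3 and 14.7 TPM in the PERK-deleted line, and 7.29, 6.91 and 6.58 TPM in WT. The starved libraries were below untreated ones without overlap in the GCN2-deleted line and WT, but the change passed only in the GCN2-deleted line (-0.35, SE 0.124, adjusted p = 0.0416), against adjusted p = 0.0598 in WT (-0.31, SE 0.124) and 0.772 in the PERK-deleted line (-0.08, SE 0.124). Leaving out any library of the GCN2-deleted comparison except replicate 3 of the starved group ended that call (adjusted p 0.0287 to 0.161), as did fitting without the level filter (adjusted p = 0.0857) or with these groups alone (adjusted p = 0.0560), while the WT change passed under 5 of 12 alternatives. With thapsigargin Casp9 averaged 8.32 ± 0.162 TPM in the GCN2-deleted line, against 10.1 ± 0.628 TPM with DMSO, 12.7 ± 0.916 TPM in the PERK-deleted line, against 14.8 ± 1.82 TPM, and 6.30 ± 0.666 TPM in WT, against 9.14 ± 0.492 TPM (SD, n = 3 each). Set against WT by a test of the difference, the Casp9 response to starvation passed in neither deleted line. In the GCN2-deleted line the difference was -0.04 (SE 0.175, adjusted p = 0.949, limma). In the PERK-deleted line it was 0.23 (SE 0.175, adjusted p = 0.489). Casp9 overlaps Cela2a, whose median was 0 TPM.

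Casp2, the PIDDosome protease, and Casp8, the death receptor protease, had the highest medians of the members over all libraries, 31.4 and 29.2 TPM. Their ranges were 20.1 to 41.5 TPM and 23.2 to 41.1 TPM. In thapsigargin-treated WT, however, Casp4 averaged 27.2 TPM, above Casp8 at 24.2 TPM and Casp2 at 22.8 TPM. The highest Casp2 group was the GCN2-deleted line under thapsigargin, with 39.9, 35.7 and 41.5 TPM, against 26.8, 24.2 and 25.4 TPM with DMSO. Those groups did not overlap (0.59, SE 0.0947), whereas WT had 23.9, 22.3 and 22.1 TPM, against 25.5, 20.1 and 23.2 TPM with DMSO, and overlapped (-0.01, SE 0.0947). The PERK-deleted line had 31.9, 33.7 and 33.3 TPM, against 34.4, 32.8 and 33.6 TPM with DMSO (-0.03, SE 0.0947). With starvation Casp2 averaged 31.5 ± 1.05 TPM in the GCN2-deleted line, against 26.3 ± 1.61 TPM untreated, 37.0 ± 3.11 TPM in the PERK-deleted line, against 32.4 ± 3.67 TPM, and 31.0 ± 1.60 TPM in WT, against 26.9 ± 4.56 TPM (SD, n = 3 each). None of these changes passed in the model (0.25, 0.19 and 0.21 in that order; adjusted p = 0.0521, 0.228 and 0.102, limma), but each did after median-of-ratios and quantile scaling. The untreated PERK-deleted line was above WT by 0.27 (SE 0.0947, adjusted p = 0.0211) and above the GCN2-deleted line by 0.29 (SE 0.0947, adjusted p = 0.0142), where the median of all genes was as given for Casp9. The difference from WT was lost without replicate 1 or 2 of the PERK-deleted line or replicate 3 of WT, and the other without replicate 1 or 2 of either line (adjusted p up to 0.243 and 0.0947). With the compared groups fitted alone neither passed (adjusted p = 0.232 and 0.0600).

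Casp8 had small differences throughout. Untreated libraries had 31.6, 28.5 and 29.1 TPM in the GCN2-deleted line, 32.5, 34.9 and 29.3 TPM in the PERK-deleted line, and 27.5, 26.7 and 25.2 TPM in WT. Both deleted lines lay above WT without overlap, by 0.16 in the GCN2-deleted line (SE 0.0684, adjusted p = 0.0556, limma) and by 0.27 in the PERK-deleted line (SE 0.0684, adjusted p = 0.00154; 0.0866 with these groups fitted alone). The difference of the GCN2-deleted line from WT passed under 6 of 12 alternatives (adjusted p 0.00146 to 0.179). With starvation it averaged 34.1 ± 1.54 TPM in the GCN2-deleted line, against 29.8 ± 1.63 TPM untreated, 37.1 ± 3.79 TPM in the PERK-deleted line, against 32.2 ± 2.84 TPM, and 29.0 ± 1.18 TPM in WT, against 26.5 ± 1.16 TPM (SD, n = 3 each). The change passed in the GCN2-deleted line (0.19, SE 0.0684, adjusted p = 0.0436) but not in the PERK-deleted line (0.20, SE 0.0684, adjusted p = 0.059) or WT (0.13, SE 0.0684, adjusted p = 0.181), and it was lost on leaving out any library of that comparison except replicate 1 of the untreated group (adjusted p 0.0324 to 0.167), with quantile normalization (adjusted p = 0.0837), without the level filter and with these groups fitted alone (adjusted p = 0.0667). The change in the PERK-deleted line passed under 4 of 12 alternatives (adjusted p 0.0231 to 0.627), and that in WT under 3 of 12 (adjusted p 0.0211 to 0.287). The starvation response of Casp8 did not pass as different from that of WT in either deleted line. The difference was 0.06 in the GCN2-deleted line (SE 0.0967, adjusted p = 0.791, limma). In the PERK-deleted line it was 0.07 (SE 0.0967, adjusted p = 0.744). The thapsigargin changes were 0.09, -0.10 and -0.04 in the GCN2-deleted line, PERK-deleted line and WT (SE 0.0684 each). DMSO against untreated cells gave 0 calls among the 6 members in any line (limma; 1 with an unadjusted p under 0.05, Casp2 in WT, which also passed with array weights, as did Casp9 in the GCN2-deleted line), where 0.149%, 0.242% and 0.118% of genes passed in the GCN2-deleted line, PERK-deleted line and WT.

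Of the 9 apoptosome and executioner genes, all tested, 1 rose and 1 fell with starvation in the GCN2-deleted line, 0 rose and 1 fell in the PERK-deleted line, and 0 rose and 2 fell in WT (median change -0.13 in WT, against -0.05 for all genes, of which 23.9%, 12.1% and 29.9% passed in the same order of lines). The genes that fell in WT were Dffa, the inhibitor of the apoptotic DNase (-0.50, adjusted p = 4.68e-06, limma), and Apaf1, the scaffold that activates Casp9 (-0.47, adjusted p = 0.00987). Apaf1 also fell with thapsigargin in WT, to 9.64 ± 1.56 TPM, against 15.2 ± 2.69 TPM with DMSO (-0.60, adjusted p = 0.00152), and that response differed in the PERK-deleted line (0.65, SE 0.196, adjusted p = 0.0248).

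Of the 10 caspase inhibitors and their antagonists, all tested, 4 were higher and 2 lower in the untreated PERK-deleted line than in WT, and 0 higher and 3 lower in the GCN2-deleted line. Of all genes tested, 49.8% and 44.4% passed in these comparisons, in that order. Cflar, which holds Casp8 in check, averaged 34.0 ± 5.14 TPM in the PERK-deleted line, against 22.3 ± 5.91 TPM in WT (0.61, adjusted p = 0.000254, limma). Xaf1, an antagonist of Xiap, averaged 1.81 ± 0.498 TPM in the GCN2-deleted line, against 11.4 ± 0.789 TPM in WT (-2.16, adjusted p = 1.68e-12). With starvation Cflar rose in the GCN2-deleted line (0.53, adjusted p = 0.00314) and the PERK-deleted line (0.52, adjusted p = 0.00723), while with thapsigargin it fell in WT to 14.3 ± 1.34 TPM, against 21.6 ± 1.22 TPM with DMSO (-0.57, adjusted p = 0.00126). Among 12 death receptor and necroptosis genes, 7 were higher and 4 lower in the untreated PERK-deleted line than in WT, where 49.8% of all genes passed. Ripk3, the necroptosis kinase, averaged 8.53 ± 1.22 TPM in the PERK-deleted line, against 38.3 ± 1.41 TPM in WT (-2.05, adjusted p = 6.41e-19). Tnfrsf10b, a receptor that can activate Casp8, averaged 44.2 ± 4.64 TPM there, against 18.0 ± 2.06 TPM in WT (1.25, adjusted p = 1.21e-14). Of the 6 PIDDosome and Casp2 genes, 0 rose and 1 fell with starvation in WT: Pidd1, the platform that activates Casp2, averaged 7.01 ± 0.674 TPM, against 14.3 ± 7.39 TPM untreated (-0.83, adjusted p = 0.00217), with a wide spread among the untreated libraries. Of all genes tested, 29.9% passed with starvation in WT.

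Some genes of the inflammasome and pyroptosis list also differed between the untreated lines. Of all genes tested, 44.4% passed between the GCN2-deleted line and WT, and 49.8% between the PERK-deleted line and WT. Gsdmd, the gasdermin that Casp4 and Casp1 cleave, had 14.9, 13.9 and 11.6 TPM in the untreated GCN2-deleted line, 13.5, 13.1 and 11.1 TPM in the PERK-deleted line, and 102, 83.6 and 78.8 TPM in WT. Both deleted lines lay far under WT, by -2.62 in the GCN2-deleted line (SE 0.113, adjusted p = 3.48e-17, limma) and -2.71 in the PERK-deleted line (SE 0.113, adjusted p = 1.57e-17). Gsdme, another gasdermin, had 3.22 ± 0.587 TPM in the GCN2-deleted line, 12.7 ± 0.397 TPM in the PERK-deleted line and 23.1 ± 0.594 TPM in WT (SD, n = 3 each), with differences from WT of -2.52 (adjusted p = 1.81e-18) and -0.81 (adjusted p = 4.37e-08). Il18, a cytokine precursor of inflammasomes, went the other way, at 1.70 ± 0.0658 TPM, 1.55 ± 0.802 TPM and 0.0853 ± 0.094 TPM in the same order. Of the 20 inflammasome and pyroptosis genes in the list, 8 passed the level filter; of those, 3 were higher and 4 lower in the GCN2-deleted line than in WT, and 3 higher and 2 lower in the PERK-deleted line. With starvation 4 of the 8 rose and 0 fell in WT, against 2 and 0 in the GCN2-deleted line and 0 and 1 in the PERK-deleted line. Of all genes tested, 29.9%, 23.9% and 12.1% passed with starvation, in that order. Txnip, which binds the inflammasome sensor Nlrp3, averaged 32.8 ± 7.93 TPM in the starved GCN2-deleted line, against 13.6 ± 1.20 TPM untreated (1.19, adjusted p = 4.46e-09). In the starved PERK-deleted line it averaged 10.9 ± 1.29 TPM, against 18.9 ± 0.587 TPM untreated (-0.75, adjusted p = 1.83e-05). In starved WT it averaged 40.9 ± 3.49 TPM, against 18.2 ± 1.52 TPM untreated (1.13, adjusted p = 4.62e-09). The response of the PERK-deleted line differed from that of WT by -1.88 (SE 0.155, adjusted p = 1.02e-09).

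**Figure D4:**
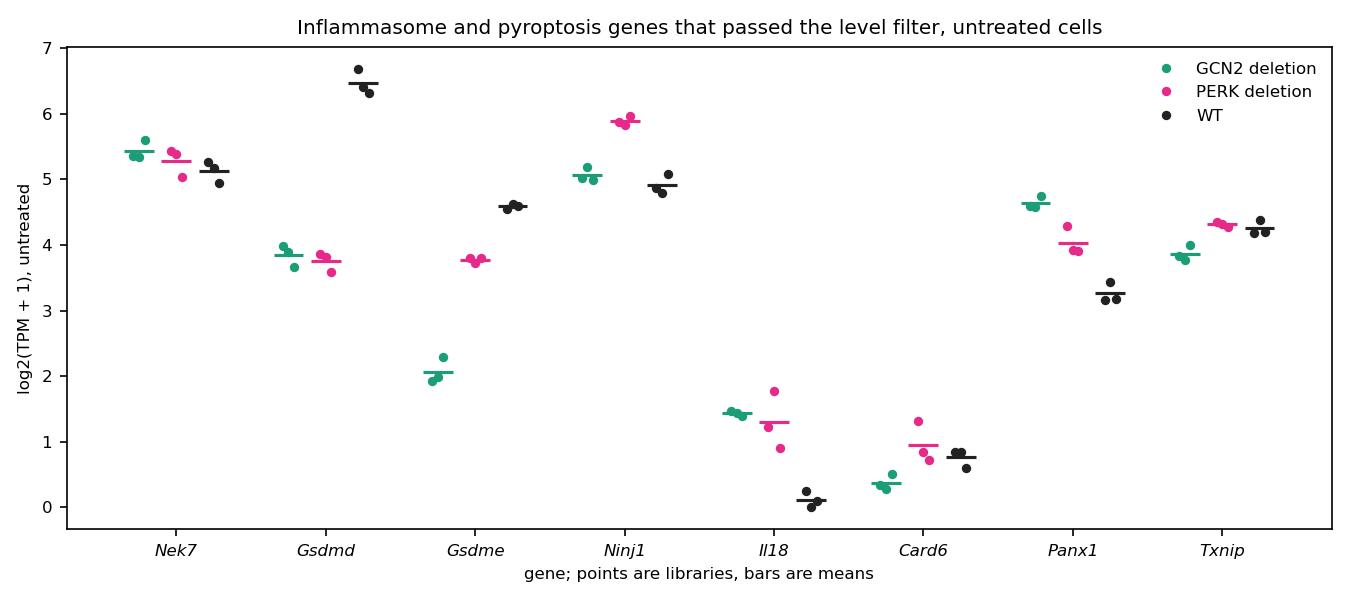
Untreated level on the log2(TPM + 1) scale of the 8 inflammasome and pyroptosis genes that passed the level filter, with 3 libraries per line as points and their mean as a bar, in the GCN2-deleted line (green), PERK-deleted line (pink) and WT (black). Gsdmd is at 11.1 to 14.9 TPM in the libraries of both deleted lines and at 78.8 to 102 TPM in WT, while Il18 is higher in both deleted lines.

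Genes listed for ties to inflammatory caspases (interferon, Toll-like receptor and guanylate-binding protein genes) moved in both directions with starvation. Of 26 listed, 25 were in the table and 23 tested: 2 rose and 6 fell with starvation in WT, 1 and 6 in the GCN2-deleted line, and 4 and 5 in the PERK-deleted line, where 29.9%, 23.9% and 12.1% of all genes passed. The median change in WT was -0.19, against -0.05 for all genes. Stat2, a factor of interferon signalling, fell in starved WT to 4.56 ± 0.762 TPM, against 19.9 ± 6.45 TPM untreated (-1.87, adjusted p = 1.81e-10, limma). Cd14, a lipopolysaccharide co-receptor, rose in starved WT to 10.5 ± 0.809 TPM, against 6.36 ± 0.662 TPM untreated (0.65, adjusted p = 1.22e-06). With thapsigargin 6 rose and 6 fell in WT, where 26.3% of all genes passed, and Cd14 reached 13.5 ± 0.355 TPM, against 7.08 ± 0.212 TPM with DMSO (0.85, adjusted p = 1.51e-08). In untreated cells 2 were higher and 14 lower in the GCN2-deleted line than in WT, and 4 higher and 6 lower in the PERK-deleted line, where 44.4% and 49.8% of all genes passed. Tlr4, the lipopolysaccharide receptor, was lower than in WT in both, by -1.09 in the GCN2-deleted line (adjusted p = 4.18e-06) and -0.88 in the PERK-deleted line (adjusted p = 7.35e-05).

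Among ER stress genes, Hspa5 rose with thapsigargin in all 3 lines. The ER chaperone it encodes is a standard marker of ER stress, and its mRNA averaged 3632 ± 145 TPM in the treated GCN2-deleted line, against 622 ± 21.8 TPM with DMSO, 3405 ± 32.7 TPM in the PERK-deleted line, against 493 ± 21.2 TPM, and 4940 ± 203 TPM in WT, against 692 ± 31.1 TPM. Each rise passed (2.54, 2.79 and 2.83 in that order; adjusted p = 7.85e-22, 4.4e-22 and 9.49e-23, limma). Ddit3, the CHOP transcription factor downstream of PERK, averaged 268 ± 1.59 TPM in the treated PERK-deleted line, against 55.1 ± 4.45 TPM with DMSO, and 921 ± 36.3 TPM in treated WT, against 58.9 ± 1.81 TPM, and its response was smaller in the PERK-deleted line (-1.68, SE 0.0884, adjusted p = 3.81e-13). Of the 13 ER stress genes tested, 9 rose and 2 fell with thapsigargin in the GCN2-deleted line, 5 and 0 in the PERK-deleted line and 7 and 2 in WT, where 36.7%, 5.30% and 26.3% of all genes passed; the response differed from that of WT in 14.3% of genes in the GCN2-deleted line and 13.0% in the PERK-deleted line. With starvation 8 rose and 2 fell in WT, 3 and 4 in the GCN2-deleted line, and 1 and 2 in the PERK-deleted line, where 29.9%, 23.9% and 12.1% of all genes passed. Ddit3 averaged 16.7 ± 0.0895 TPM in the starved GCN2-deleted line, against 36.5 ± 1.99 TPM untreated (-1.08, adjusted p = 4.84e-13), 43.3 ± 3.15 TPM in the starved PERK-deleted line, against 52.6 ± 2.10 TPM (-0.27, adjusted p = 0.00338), and 252 ± 19.5 TPM in starved WT, against 65.2 ± 2.08 TPM (1.93, adjusted p = 7.15e-19).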

How the data were processed

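Total RNA of mouse embryonic fibroblasts was extracted with Trizol and made into Illumina TruSeq stranded libraries, per the labels' protocols. The submitters' processing notes name FastQC, kallisto and mm10, with no versions. The authors deposited TPM per gene symbol, a unit that keeps no depth, so depth is unknown and no counting interval or detection floor is given.

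Symbols reaching 1 TPM in 3 or more libraries entered the fit (16083 of 54735 symbols; 6 of 7 members). limma 3.58.1 in R 4.3.3 was fitted to log2(TPM + 1) over the 12 groups (24 residual degrees of freedom, trended moderated variance), p-values were adjusted by Benjamini-Hochberg across all fitted genes, and a gene rose or fell at an adjusted p under 0.05. The fit was first tested on simulated data. Alternatives were other scalings, pseudocounts, filters, variance models and controls, a replicate block, only the groups compared, and each library left out in turn. The members and lists were chosen with earlier results of these data known, and no pattern here is independent support for that choice.

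Named were the 7 members, both kinases, up to 2 genes per list that rose or fell most in a comparison, and the 5 genes most like Casp4 or Casp12; the chromosome 9 neighbours and markers named singly were added after values were seen. Comparisons of treatments within a line share controls with the line differences. Gene positions are from RefSeq on GRCm38, and gene classes (microRNA, protein-coding) from GENCODE. Protein sequences were not used here, and some items covered by the naming rule are not reported here. Tables and plots used Python 3.11.15, pandas 2.3.3 and matplotlib 3.10.9.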

Additional observations from a re-analysis of the deposited data

Results flagged for a closer look

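The response of Casp6 to starvation drew attention because the PERK-deleted line and WT differed in it by a test of the difference itself (limma). The difference, PERK-deleted minus WT, was 0.77 on the log2(TPM + 1) scale (SE 0.158, adjusted p = 0.00118), with untreated means of 20.9 TPM in the PERK-deleted line and 23.5 TPM in WT. Casp4 also met the numerical condition, with a value of -0.69 on the same scale, but this value says little of its response: the transcript averaged 0.0838 TPM in starved and 0.110 TPM in untreated cells of the PERK-deleted line, under the filter level in every library, where the scale can show little of a fold change. With a pseudocount of 0.1 in place of 1 the condition was not met, and the Casp4 value is given as a description, with no test.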

How the results depend on the processing

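Of 52 tested results on the members (14 more, in which a line lay under 1 TPM in every library, are not counted), 14 passed, and 7 of these passed under every alternative and without every left-out library; over 258 alternative values of the 14, 28 no longer passed and 0 changed sign. Of 717 alternative values of the results that did not pass, 49 passed and 77 had another sign without passing. The 7 results that lost their call under some setting were those of Casp8, Casp9 and Casp12 with starvation in the GCN2-deleted line, Casp12 with starvation in WT, Casp2 between the untreated PERK-deleted line and either other line, and Casp8 between the untreated PERK-deleted line and WT; the causes were not tested. Read depth cannot be had from TPM, so depth limits are unknown.

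The counts of all genes passing moved more. In the order GCN2-deleted, PERK-deleted and WT, DMSO against untreated gave 24, 39 and 19 genes, against 84, 78 and 60 after median-of-ratios scaling and 71, 105 and 60 after quantile normalization; without the level filter the PERK-deleted line gave 76 and WT 35. Array weights, estimated gene by gene, gave 6923 and 3510 genes with starvation in the deleted lines, against 3843 and 1951; 2117, 361 and 743 with DMSO; 2130 and 7246 with thapsigargin in the PERK-deleted line and WT, against 853 and 4222; and, for the differences from WT, 4019 and 3175 with starvation, against 1263 and 1757, and 6862 and 5046 with thapsigargin, against 2292 and 2086. Exchanging the control (DMSO for untreated and the reverse) gave 1540 with thapsigargin in the PERK-deleted line and 5734 and 3234 for the differences. Fitting only the compared groups gave 2, 13 and 2 with DMSO, 301 and 2392 with starvation in the PERK-deleted line and WT (main 1951 and 4810), 789 and 700 for the starvation differences, and 4271 and 4638 for the untreated GCN2-deleted and PERK-deleted lines against WT, against 7145 and 8008. Leaving out the libraries with over 2% of TPM in microRNA genes, chosen after seeing the data like the restriction to protein-coding genes, gave 204 and 34 with DMSO in the GCN2-deleted line and WT, 1394 with thapsigargin in the PERK-deleted line and 4435 for the GCN2-deleted difference. Leaving out one library at a time gave 12 to 25, 11 to 49 and 3 to 1450 with DMSO in the same order, the last highest without replicate 3 of untreated WT; 1014 to 1898 for the starvation difference of the GCN2-deleted line, again highest without that library; and 1155 to 3101 for its thapsigargin difference, lowest without replicate 3 and highest without replicate 1 of thapsigargin-treated WT. 

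The replicate numbers did not pair the samples: correlations of same-numbered deviations were -0.179 to 0.155, and in 0 of 12 comparisons was every pair over 0.1. With the replicate number as a block, WT had 29 genes with DMSO, and Casp8 passed with starvation in the PERK-deleted line (adjusted p = 0.0482, limma) and between the untreated GCN2-deleted line and WT (adjusted p = 0.0461).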
